A study of Mus musculus and Homo sapiens with 65 samples.

Results

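The genes described here encode the proteins that mark, load and fire DNA replication origins and that copy DNA at the fork. They were chosen by name, as a list of 45 symbols that runs from the origin recognition complex to ribonucleotide reductase. Of these, 43 were found among the 32287 genes of the deposited expression tables, while Cdt1 and Gins2 were not analysed here. All 43 passed the filter on low values, a level of 1 FPKM or above in at least 2 libraries. FPKM counts sequenced fragments per length of transcript and per size of the library. The level of every gene was measured by RNA-seq in mouse embryos at the late 2-cell stage, in 9 of the 65 samples of the series. The 4 groups were wild-type embryos (3 libraries), embryos treated with alpha-amanitin (2 libraries), embryos injected as zygotes with mismatch control morpholinos (2 libraries) and embryos injected with morpholinos against both Kdm5a and Kdm5b (2 libraries). The morpholinos, which are synthetic antisense oligonucleotides, carried fluorescein and were injected 0.5 days after conception. Embryos of all groups were grown in G1 plus medium, per the labels' protocols. The sources used here do not give the mouse strain, the dose of alpha-amanitin or the number of embryos in a library. Values of several libraries are listed in the order of their replicate numbers.

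In dividing cells, the origin recognition complex (ORC) binds DNA, and with Cdc6 and Cdt1 it loads the MCM2-7 helicase before S phase. Geminin, the product of Gmnn, binds Cdt1 and stops further loading. The Cdc7 kinase, Cdc45, the GINS complex and Mcm10 then turn the loaded helicase into a moving fork. Primase and polymerase alpha start each new strand, the RFC complex places the PCNA clamp, polymerases delta and epsilon extend, RPA covers single-stranded DNA, and Fen1 and Lig1 join the lagging-strand pieces. A mouse embryo inherits many of these messages from the egg and starts its own transcription at the 2-cell stage. Alpha-amanitin blocks RNA polymerase II, so RNA found after treatment is largely RNA that was already there. Kdm5a and Kdm5b encode histone demethylases that act on the H3K4 mark of active promoters.

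Many replication genes carry binding letters of the E2F factors in their promoters in other cell types, so the promoters of the members were searched for them. RefSeq promoter windows (build GRCm38.p6, from 250 bases before to 50 bases after a transcription start) matched 36 of the 43 members. Gmnn, Mcm4, Rfc2, Gins1, Gins4, Pole and Prim2 had none. The letters TTTCGCGC, TTTGGCGC and TTTCCCGC, on either strand, lay in the windows of 15 of the 36 members (41.7%), against 573 of 27025 genes in the whole table (2.12%). Below are 4 of the matches that lie outside annotated exons, each with 20 bases on either side. They show E2F-type letters before the RefSeq start of a gene that fell with alpha-amanitin (Cdc6) and of genes that did not pass that test (Mcm6 and Pola1). Sequences run 5′ to 3′ on the strand of the gene, and capitals mark the matched letters. Where a forward and a reverse match overlap, as in the distal Mcm6 site, they form 1 run of capitals.
Cdc6 (chr11:98907993-98908040, plus strand): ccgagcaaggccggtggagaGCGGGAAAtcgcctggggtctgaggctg
Mcm6, distal (chr1:128359784-128359835, minus strand): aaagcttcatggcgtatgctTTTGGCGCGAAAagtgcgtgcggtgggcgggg
Mcm6, proximal (chr1:128359725-128359772, minus strand): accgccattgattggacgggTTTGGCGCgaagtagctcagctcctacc
Pola1 (chrX:93632266-93632313, minus strand): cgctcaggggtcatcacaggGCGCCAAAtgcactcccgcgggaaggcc
The runs begin 138 bases before the RefSeq start in Cdc6, 110 and 47 in Mcm6 and 138 in Pola1. In the annotation of the expression data Cdc6 begins earlier, at 98907801, so its run lies inside the gene there. The letters were about as frequent in members that fell with alpha-amanitin (5 of 12 with a window, 41.7%) as in members that were not called (10 of 23, 43.5%). The letters CCAAT, on either strand, lay in the windows of 24 of 36 members (66.7%) and of 41.1% of all genes. They were in 10 of the 12 members that fell (83.3%) and in 13 of the 23 that were not called (56.5%). No E2F-type run contains the CCAAT letters. A match describes the letters only and says nothing of binding.

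In wild-type embryos, the members ranged from under 1 FPKM to over 50 FPKM, and subunits of the same complex stood far apart. Pold3, the third subunit of polymerase delta, was the highest, at 43.9, 83.7 and 48.3 FPKM. Gmnn followed at 57.7, 61.8 and 48.3 FPKM, and Orc6, the smallest ORC subunit, at 40.9, 67.4 and 50.1 FPKM. The ranges of these 3 genes overlapped, so their order was within the spread. At the low end, Rfc3 was at 0.934, 0.543 and 1.35 FPKM and Rfc2 at 0.391, 0.849 and 1.04 FPKM, both subunits of the clamp loader. Pold2, the second subunit of polymerase delta, was at 0.902 FPKM in replicate 1 and listed at 0 in the other two. Within a complex, the highest wild-type mean was 16 times the lowest in ORC (Orc3 to Orc6), 7.80 times in MCM2-7 (Mcm5 to Mcm6), 13.6 times among the firing genes (Gins1 to Cdc45), 17.7 times in primase and polymerase alpha (Pola2 to Pola1) and 4.94 times in RPA (Rpa1 to Rpa2). A mean of 10 FPKM or more was reached by 22 of the 43 members, and 6 were under 2 FPKM. In 14 members the wild-type SD was more than 50% of the mean: Lig1, for example, was at 0.932, 5.71 and 32.6 FPKM, and Mcm8 at 1.95, 1.02 and 14.8 FPKM.

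**Figure D1:**
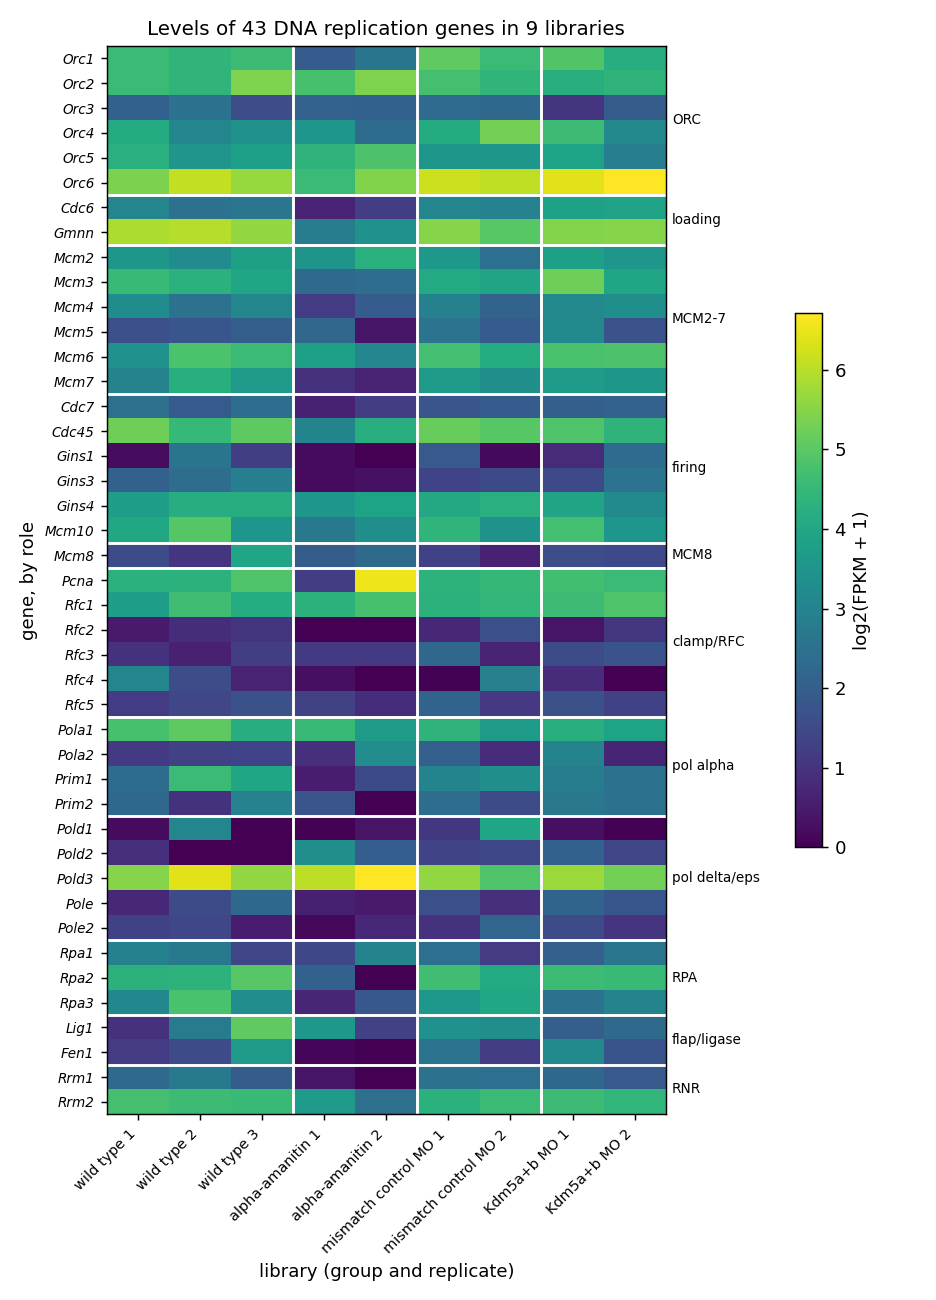
Level of each of the 43 members (rows, grouped by role) in each of the 9 libraries (columns, by group and replicate), as log2(FPKM + 1) from dark (0) to bright. Gmnn, Orc6 and Pold3 are bright in the wild-type columns, and the alpha-amanitin columns are darker for 14 members that fell, among them Orc1, Gmnn, Mcm7 and Rpa2, while Pcna is dark in alpha-amanitin replicate 1 and bright in replicate 2.

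The read depth of the libraries is unknown, since the files give FPKM and its bounds but no counts. The distance from the FPKM to its bounds was taken over the members at 1 FPKM or more in a library. These were 36 to 39 members in wild type but 28 and 29 with alpha-amanitin, so the lowest members are left out. For the median of them the distance was 18.0% to 21.0% of the level in wild type. It was wider with alpha-amanitin (23.6% and 26.5%) and narrower in the mismatch control (12.3% and 15.7%) and Kdm5a+b morpholino libraries (12.2% and 15.5%). Together the members made up 0.235% to 0.278% of the summed FPKM in wild type. Their share was 0.154% and 0.229% after alpha-amanitin, 0.258% and 0.235% for mismatch morpholinos, and 0.271% and 0.225% for Kdm5a+b morpholinos. Marker lists were read beside these groups. The 11 rows of 2-cell marker genes summed to 289 to 366 FPKM in wild-type libraries and 19.0 to 21.8 FPKM with alpha-amanitin, and the 8 oocyte genes to 485 to 604 and 945 to 1020 FPKM. The 8 cumulus cell genes summed to 2.35 to 4.22 FPKM in wild type and 0.483 to 0.718 FPKM with alpha-amanitin. The 7 sperm genes summed to at most 5.96 and the 7 blood genes to at most 7.98 FPKM in any library. Under 1 FPKM in all 9 libraries were 6 of the cumulus, 4 of the sperm and 4 of the blood genes. Hba-a2, a blood gene, was listed at 0 in the wild-type and alpha-amanitin libraries and at 1.15 to 5.72 FPKM in the morpholino libraries. The other blood genes did not share this pattern. Hba-a1 was highest in wild-type replicate 1 (4.62 FPKM) and at 1.06 to 2.53 FPKM in the morpholino libraries, and Hbb-bs and Hbb-bt were listed at 0 in all 9. The 6 oviduct genes summed to 20.5 to 62.3 FPKM in wild-type libraries and 1.29 to 3.14 FPKM with alpha-amanitin, most of the former from Epcam. The part of these other messages in the results below was not tested.

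Alpha-amanitin was compared with wild type to ask which replication messages needed new transcription. Of the 43 members, 14 fell and 1 rose. The genes that fell were Orc1, Cdc6 and Gmnn among the licensing genes, Mcm3, Mcm4 and Mcm7 of the helicase, and Cdc7, Cdc45 and Gins3 of firing. Prim1, Rpa2 and Rpa3 at the fork fell too, as did Rrm1 and Rrm2 of ribonucleotide reductase. No gene of the clamp and its loader, of polymerases delta and epsilon or of flap removal and ligation was called lower. Pold2 of polymerase delta rose. Among the uncalled genes of these roles, Rfc2, Rfc4, Pole and Fen1 had both treated libraries under all wild-type libraries. So did 41.1% of all genes, so this does not set these 4 apart. The fall was 32.6% of the members against 25.1% of all 13137 genes tested, and the rise 2.33% against 4.31%, so both shares were near those of all genes. A change here means a limma adjusted p under 0.05, with the adjustment made over all genes tested. The remaining 28 members were not called. Without alpha-amanitin replicate 1, 8 members fell. With quantile normalization 4 members fell and 1 rose, against 1806 falls and 1716 rises among all 13137 genes. With every library centred on its median gene, an alternative chosen after seeing the data, 4 members fell and 6 rose. All genes then gave 1590 falls and 3323 rises, so their counts shifted with the scaling too.

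The median difference of the members in log2(FPKM + 1) was −0.80, and that of all genes −0.56. These medians depended on how the libraries were scaled. With median centring they were 0.27 and 0.52, and with quantile normalization −0.23 and 0.17. The members' median thus changed sign with the centring while it stayed under the median of all genes. Genes at 1 FPKM or more numbered 10757 to 10950 in wild-type libraries and 7977 and 7935 with alpha-amanitin, and the part of this in the medians was not tested. Both alpha-amanitin libraries were below all 3 wild-type libraries for 20 members (46.5%, against 41.1% of all genes) and above them for 2, Orc5 and Pold2 (4.65%, against 13.4%). These are bulk libraries, in which fewer embryos or cells with a message and less of it per cell cannot be told apart. The labels do not say whether the libraries of a group came from separate embryo collections, so the tests measure the spread between these libraries.

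**Figure D2:**
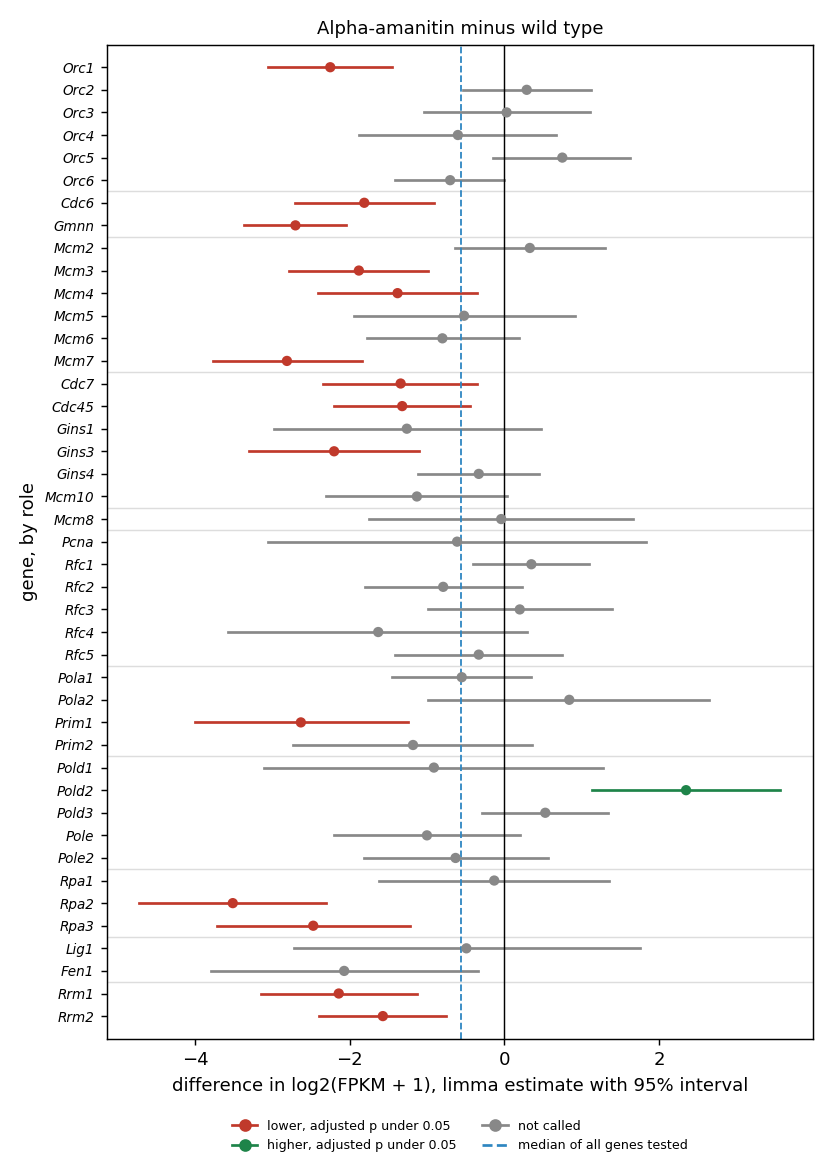
Difference of each member in log2(FPKM + 1), alpha-amanitin minus wild type (points, limma estimates; lines, 95% intervals), with genes in rows by role and the dashed line at the median of all genes (−0.56). The 14 genes that fell lie to the left, with Rpa2 farthest at −3.51, Pold2 lies to the right at 2.35, and the intervals of most others cross 0.

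Among the ORC genes only Orc1 fell. Orc1, an ATPase subunit at chr4:108579423-108614833 (mm10), was at 23.0, 20.1 and 23.2 FPKM in wild-type libraries and 2.87 and 5.07 FPKM with alpha-amanitin. Its mean was 5.56-fold lower, and the groups were far apart. The difference was −2.25 in log2 (SE 0.36, limma adjusted p = 0.001), and it was called in all 18 alternative settings. Orc6 was at 22.9 and 42.8 FPKM after treatment, which overlapped the wild-type range, with a difference of −0.70 (95% interval −1.41 to 0.00). Orc2 and Orc5 were at 26.1 and 41.6, and at 19.7 and 27.5 FPKM, with differences of 0.29 (−0.53 to 1.12) and 0.75 (−0.14 to 1.63). Both Orc5 values were above its wild-type values of 18.1, 10.4 and 12.9 FPKM. Orc3 (0.03, −1.04 to 1.11) and Orc4 (−0.60, −1.88 to 0.67) were not called either. With libraries centred on their median gene, Orc2 and Orc5 were called higher (1.37 and 1.82), and without alpha-amanitin replicate 2 Orc6 was called lower (−1.14, limma adjusted p = 0.0429). Orc1 overlaps Gm12743, Orc2 overlaps Nif3l1, Orc4 overlaps Acvr2a and Mbd5, and Orc5 overlaps Gm15421. Whether fragments were counted by strand is not given, so fragments of such neighbours may be shared.

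Cdc6 and Gmnn, which act in opposite directions on helicase loading, both fell. Cdc6, the ATPase that works with ORC, was at 7.24, 4.71 and 5.19 FPKM in wild type and 0.549 and 1.32 FPKM with alpha-amanitin (−1.81, SE 0.41, limma adjusted p = 0.00708). Gmnn, at chr13:24751845-24761923, dropped from near the top of the members (57.7, 61.8 and 48.3 FPKM) to 6.16 and 9.59 FPKM. That is 14.1% of the wild-type mean, and the limma difference was −2.70 (SE 0.30, adjusted p = 8e-05), the smallest adjusted p among the members. The Gmnn call held in all 18 alternatives. The Cdc6 call was lost without alpha-amanitin replicate 1 (−1.51, limma adjusted p = 0.0551).

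Of the 6 helicase genes, Mcm3, Mcm4 and Mcm7 fell. Mcm7, at chr5:138164583-138172422, showed the largest difference, from 7.03, 17.6 and 11.2 FPKM to 0.926 and 0.578 FPKM (−2.81, SE 0.44, limma adjusted p = 0.000768, called in all 18 alternatives). Mcm3 was at 21.9, 18.6 and 14.3 FPKM in wild type and at 4.02 and 4.32 FPKM after treatment (−1.88, SE 0.41, limma adjusted p = 0.00566). For both genes every treated library was well under every wild-type library. Mcm4 was at 8.54, 4.73 and 7.42 FPKM and then 1.28 and 2.86 FPKM. Its limma adjusted p of 0.0464 (difference −1.38, SE 0.46) was close to the threshold, and the call held in 2 of the 9 fits that left out a library and in 5 of all 18 alternatives. Without alpha-amanitin replicate 1, for example, its limma adjusted p was 0.248 at a difference of −1.0.

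Mcm2, Mcm5 and Mcm6 were not called. Mcm2 was at 10.8, 8.39 and 13.2 FPKM in wild type and at 10.2 and 18.1 FPKM with alpha-amanitin, a difference of 0.33 (95% interval −0.64 to 1.30). Mcm6 was at 9.61, 27.1 and 22.9 FPKM and then 13.0 and 7.70 FPKM, a difference of −0.80 (−1.78 to 0.19). Mcm6 would have been called lower without wild-type replicate 1, its lowest wild-type library (−1.23, limma adjusted p = 0.0363). Mcm5, the lowest of the 6, was at 2.10, 2.46 and 3.09 FPKM and then 3.67 and 0.300 FPKM, so its treated libraries stood on either side of wild type. With median centring, Mcm2 was called higher (1.40 in log2), Mcm7 remained lower, and Mcm3 and Mcm4 were not called. Mcm7 overlaps Cops6 and Ap4m1 in the annotation of the files.

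**Figure D3:**
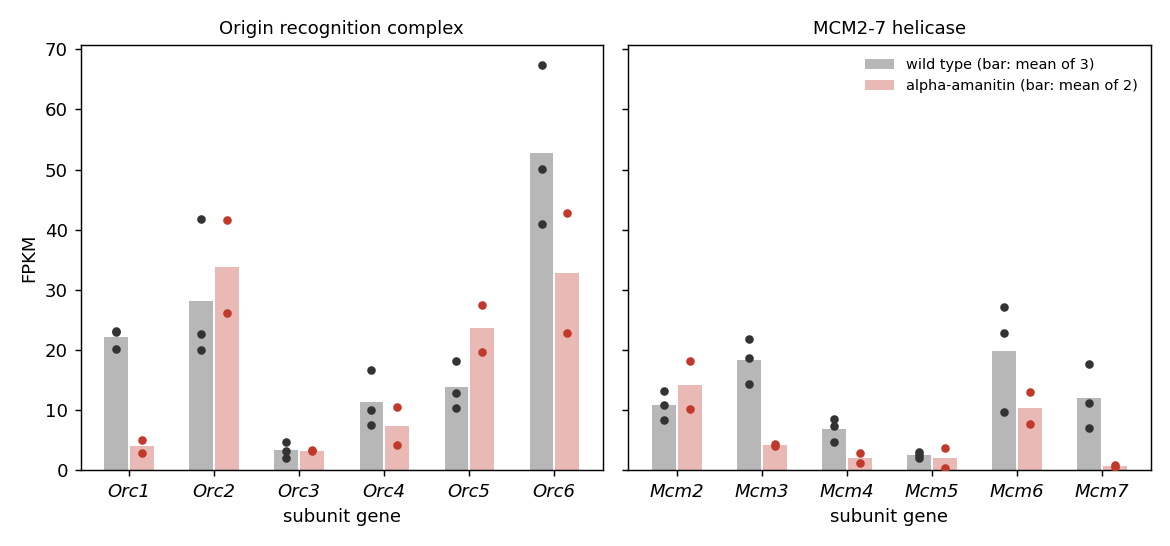
Level in FPKM (linear axis from 0) of the 6 ORC genes and the 6 MCM2-7 genes in wild-type (grey bars, mean of 3) and alpha-amanitin libraries (red bars, mean of 2), with each library as a point. Orc1, Mcm3, Mcm4 and Mcm7 have both treated points under all wild-type points, while those of Orc2, Orc3, Orc4, Orc6, Mcm2, Mcm5 and Mcm6 overlap and both of Orc5 lie above.

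Of the genes that fire loaded origins, Cdc7, Cdc45 and Gins3 fell. Gins3, a subunit of the GINS complex, was at 3.21, 4.26 and 6.30 FPKM in wild type and at 0.153 and 0.222 FPKM with alpha-amanitin (−2.20, SE 0.50, limma adjusted p = 0.00715). Cdc45, which joins MCM2-7 and GINS in the active helicase, went from 36.8, 21.6 and 31.9 FPKM to 7.10 and 17.4 FPKM (−1.32, SE 0.40, limma adjusted p = 0.0301). Cdc7, the kinase that acts on the loaded MCM proteins, went from 4.54, 2.74 and 4.41 FPKM to 0.537 and 1.34 FPKM (−1.34, SE 0.45, limma adjusted p = 0.0459). All treated values of these 3 genes were under all wild-type values. The Cdc45 call was lost without wild-type replicate 1 or 3 or alpha-amanitin replicate 1 (limma adjusted p of 0.0805, 0.0767 and 0.238). The Cdc7 call held in 1 of the 9 fits that left out a library, that without wild-type replicate 2, and its limma adjusted p was 0.242 without alpha-amanitin replicate 1. Cdc45 overlaps Ufd1l.

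Gins1, Gins4 and Mcm10 were not called. Mcm10, which binds the activated helicase, was at 15.1, 29.6 and 10.6 FPKM and then 5.55 and 9.09 FPKM, a difference of −1.13 (95% interval −2.31 to 0.04). Gins4 was at 12.6, 17.3 and 17.1 FPKM and then 10.5 and 13.9 FPKM (−0.33, −1.11 to 0.45), beside the low values of its partner Gins3. Gins1 varied from 0.162 to 5.14 FPKM within wild type (−1.26, −2.98 to 0.47). Mcm8, a relative of the helicase with roles in recombination, had a difference of −0.04 (−1.75 to 1.66).

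None of the clamp and clamp loader genes was called, and Pcna had the widest interval of the members. Pcna encodes the sliding clamp and lies at chr2:132249162-132253314. It was at 18.6, 18.9 and 28.4 FPKM in wild type, and at 1.34 FPKM in alpha-amanitin replicate 1 but 92.6 FPKM in replicate 2, with bounds of 86.8 and 98.7 FPKM. The 2 treated libraries thus lay on opposite sides of all the other 7, which were at 18.6 to 28.4 FPKM. The difference was −0.61 (SE 1.10, 95% interval −3.05 to 1.83). Leaving out replicate 1 gave 2.05 (limma adjusted p = 0.00324) and leaving out replicate 2 gave −3.27 (limma adjusted p = 0.000401). Pcna was singled out after its values were seen. A processed copy on chromosome 19, Pcna-ps2, was at 42.3, 71.8 and 60.6 FPKM in wild type and at 3.64 and 13.6 FPKM with alpha-amanitin, and reads could be split between the pair. Their sum was 60.9, 90.7 and 89.0 FPKM in wild type and 4.98 and 106 FPKM with alpha-amanitin, so the treated libraries remained apart.

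Rfc1, the large subunit of the clamp loader, was at 12.7, 24.2 and 16.9 FPKM in wild type and 18.9 and 26.3 FPKM after treatment, a difference of 0.35 (95% interval −0.41 to 1.10). It was called higher with libraries centred on their median gene (1.42). Of the small subunits, Rfc4 varied widely within wild type, at 7.44, 2.03 and 0.566 FPKM, and was at 0.210 and 0.00619 FPKM with alpha-amanitin. Rfc2 was at 0.391, 0.849 and 1.04 FPKM in wild type, and at 0.0160 FPKM and listed at 0 after treatment. For both genes the treated libraries were under all wild-type libraries, yet neither was called. Rfc3 was at 1.19 and 1.20 FPKM and Rfc5 at 1.51 and 0.824 FPKM after treatment, against 0.543 to 1.35 and 1.29 to 2.17 FPKM in wild type. Their differences ran from −1.63 (Rfc4, −3.57 to 0.30) to 0.20 (Rfc3, −0.99 to 1.39). Rfc4 overlaps the abundant gene Eif4a2, and Rfc5 overlaps Wsb2.

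In the priming complex, the catalytic primase subunit Prim1 fell from 4.17, 22.8 and 14.4 FPKM to 0.413 and 1.85 FPKM (−2.63, SE 0.62, limma adjusted p = 0.00914). Both treated libraries were under the lowest wild-type library. The call was lost without alpha-amanitin replicate 1 (−2.12, limma adjusted p = 0.0762). The other three subunits were not called: Pola1, the polymerase itself, had a difference of −0.55 (95% interval −1.45 to 0.35), Pola2 one of 0.84 (−0.98 to 2.65) and Prim2 one of −1.18 (−2.73 to 0.36). For Pola2 the treated libraries were at 0.883 and 8.85 FPKM, on both sides of wild type (1.20, 1.49 and 1.56 FPKM). Of the 5 member values that lay outside their own deposited bounds, 4 were of Pola1, which overlaps Gm14780.

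Among the genes of polymerases delta and epsilon, Pold2 rose, the only member to do so. Pold2, at chr11:5872180-5878292, was at 0.902 FPKM in wild-type replicate 1, with bounds of 0.189 and 1.92 FPKM, and listed at 0 in the other two. With alpha-amanitin it was at 8.96 and 3.01 FPKM, above every wild-type library. The limma difference was 2.35 (SE 0.55, adjusted p = 0.00882), and the call was lost without alpha-amanitin replicate 1 (1.70, limma adjusted p = 0.0954). The morpholino libraries were at 1.53 to 3.22 FPKM, above every wild-type library, and Kdm5a+b replicate 1, at 3.22 FPKM, was above alpha-amanitin replicate 2. The deposited status of Pold2 was OK in all 9 libraries, those listed at 0 included, and the size of the rise rests on values near 0. Pold3, the highest member, was at 64.6 and 103 FPKM after treatment (0.53, 95% interval −0.29 to 1.34) and was called higher with median centring (limma adjusted p = 0.00612). The catalytic genes Pold1 and Pole had differences of −0.91 (−3.10 to 1.28) and −1.0 (−2.20 to 0.20). Pole2 had one of −0.63 (−1.82 to 0.56). Pold1 was erratic within wild type, at 0.136 and 7.51 FPKM and listed at 0.

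At the single-stranded DNA binding complex RPA, the middle and small subunits fell and the large one was not called. Rpa2, at chr4:132768332-132778752, was at 19.0, 19.2 and 30.5 FPKM in wild type, and at 3.22 FPKM and listed at 0 with alpha-amanitin. Its difference of −3.51 (SE 0.55, limma adjusted p = 0.000795) was the largest among the members, and it was called in all 18 alternatives. Rpa3 went from 7.72, 26.5 and 8.87 FPKM to 0.637 and 2.53 FPKM (−2.47, SE 0.56, limma adjusted p = 0.00768). Its call was lost without alpha-amanitin replicate 1 (−1.91, limma adjusted p = 0.0693). Rpa1 was at 6.72, 5.56 and 1.63 FPKM and then 1.71 and 6.98 FPKM, inside and just above the wild-type range (−0.13, 95% interval −1.62 to 1.35).

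Fen1, the nuclease that trims the flaps of lagging-strand pieces, was at 1.24, 1.93 and 11.4 FPKM in wild type and at 0.0647 FPKM and near 0 with alpha-amanitin. Both treated values were lower, yet the limma adjusted p was 0.0699 at a difference of −2.07 (SE 0.78). With a pseudocount of 0.1 in place of 1, which weighs low values more, Fen1 was called lower (−4.62, limma adjusted p = 0.00859), and so it was with FPKM rescaled to TPM (−3.67, limma adjusted p = 0.0179) and without wild-type replicate 1 (−2.54, limma adjusted p = 0.044). Fen1 overlaps Tmem258 and Gm10143. Lig1, the ligase that seals the pieces, was at 10.9 and 1.46 FPKM after treatment, inside its broad wild-type range (−0.49, 95% interval −2.72 to 1.75).

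Rrm1 and Rrm2, which encode subunits of ribonucleotide reductase, the enzyme that makes deoxyribonucleotides, both fell. Rrm1, the large subunit, was at 3.92, 5.56 and 2.93 FPKM in wild type, and at 0.309 FPKM and listed at 0 with alpha-amanitin (−2.14, SE 0.45, limma adjusted p = 0.00501). Rrm2, a small subunit, was at 25.7, 23.2 and 22.2 FPKM and then 11.3 and 4.61 FPKM (−1.57, SE 0.37, limma adjusted p = 0.00883). Every treated library was lower than every wild-type library for both genes. Rrm2 thus kept 33.5% of its wild-type mean. Its call was lost without alpha-amanitin replicate 2 (−1.01, limma adjusted p = 0.0792).

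**Figure D4:**
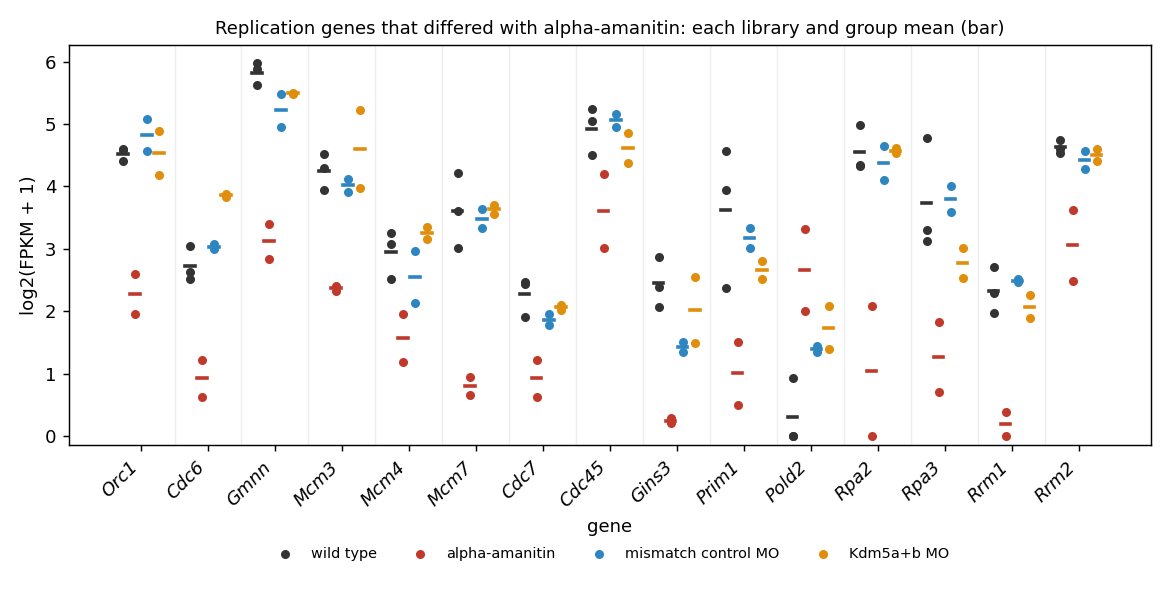
Level in log2(FPKM + 1) of the 15 members called with alpha-amanitin, in every library (points, coloured by group) with the group mean (bar). For 14 genes the alpha-amanitin points lie under all wild-type points, and for Pold2 they lie above.

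Calls of 7 of these 15 genes (Orc1, Gmnn, Mcm3, Mcm7, Gins3, Rpa2 and Rrm1) held in each fit that left out 1 of the 9 libraries. Those of Orc1, Gmnn, Mcm7 and Rpa2 held in every alternative, quantile normalization and median centring included, under each of which these 4 were the only members called lower. Without a filter on low values Mcm4, Cdc45, Prim1, Rpa3 and Pold2 were not called, and with only the wild-type and alpha-amanitin libraries in the fit Mcm4, Cdc7, Cdc45 and Prim1 were not. After treatment 10 members had no library at 1 FPKM or more, and 20 members were at 1 FPKM or more in all 9 libraries.

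The other genes of the pathway, taken from fixed lists, gave similar shares. Of 52 tested, 15 fell (28.8%) and 1 rose (1.92%), with a median difference of −0.72. These 52 included Rif1, at 134, 0 and 121 FPKM in wild type, where the 0 carried a deposited status of FAIL. That 0 was kept in the fit (difference 2.25, SE 1.63, not called), and no value of any gene was left out for its status. By list, 5 of 14 further origin genes, 6 of 18 further fork genes, 3 of 8 genes of nucleotide supply (Dck, Tk1 and Tyms) and 1 of 12 E2F and Rb family genes fell. The largest falls were E2f7, an inhibitory E2F factor, from between 17.1 and 23.3 FPKM to 0.00445 and 0.282 FPKM (−4.21, SE 0.37, limma adjusted p = 2.09e-05), and Chtf8 and Chtf18, subunits of an alternative clamp loader (−3.34 and −2.99, limma adjusted p of 0.00013 and 0.00161). Chtf18 was listed at 0 in both treated libraries. The only rise was that of E2f5, from 69.3, 53.4 and 70.2 FPKM to 111 and 121 FPKM (0.85, SE 0.25, limma adjusted p = 0.0244). Dbf4, which activates the Cdc7 kinase, was abundant in both groups, at 121 to 162 FPKM in wild type and 171 and 168 FPKM after treatment (0.27, 95% interval −0.19 to 0.72). Dbf4 was picked as the partner of Cdc7 after its values were seen.

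The Kdm5a+b morpholinos were compared with the mismatch controls to ask whether replication messages changed when the demethylases were targeted. Kdm5a was at 12.8 and 9.44 FPKM in the controls and 19.5 and 15.3 FPKM with the Kdm5a+b morpholinos, and Kdm5b at 55.3 and 39.6 and then 38.1 and 27.6 FPKM. A morpholino need not lower the message it binds, and the labels cannot be checked from these levels. No replication gene was called, and none of the 43 had an unadjusted limma p under 0.05. Across all genes 0 were called lower (0%) and 0 higher (0%) by limma, while 171 and 243 had an unadjusted p under 0.05. The median difference of the members was 0.20, against 0.00 for all genes, and 27 of the 43 were above 0. Without control replicate 2 or without Kdm5a+b replicate 1 that median was −0.10 or −0.03, so its sign rested on single libraries. In these groups of 2, the Kdm5a+b libraries were both lower for 9 members (20.9%, against 16.8% of all genes) and both higher for 10 (23.3%, against 16.5%).

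The 95% intervals show what this comparison could resolve: for the median member they reached 1.18 to either side in log2. The 6 MCM2-7 genes had differences above 0, from 0.15 (Mcm7, 95% interval −0.91 to 1.20) to 0.71 (Mcm4, −0.41 to 1.84), with none called. Mcm4 was at 6.80 and 3.38 FPKM in the controls and 7.95 and 9.20 FPKM with Kdm5a+b morpholinos, and Mcm6 at 25.0 and 16.9 and then 26.8 and 27.5 FPKM. Without Kdm5a+b replicate 1, those of Mcm3 and Mcm5 were below 0 (−0.03 and −0.56), and without control replicate 2 that of Mcm5 was −0.10. Cdc6 had the highest difference of all members, 7.40 and 6.94 FPKM against 13.3 and 13.7 FPKM (0.83, −0.16 to 1.81, unadjusted p = 0.0916, limma adjusted p = 1). The lowest was that of Pold1 (−2.39, −4.79 to 0.01), which was at 1.11 and 14.7 FPKM in the controls and 0.201 and 0.00292 FPKM with the Kdm5a+b morpholinos. Of the ORC genes, 5 of 6 were below 0, from −0.84 (Orc4, −2.23 to 0.56) to −0.18 (Orc5, −1.15 to 0.79), and Orc6 was at 0.43 (−0.35 to 1.21).

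The other members were not called, and intervals this wide cannot show that the groups were alike. Gmnn was at 43.7 and 30.1 FPKM in the controls and 43.6 and 44.2 FPKM with the Kdm5a+b morpholinos (0.27, 95% interval −0.46 to 0.99). Pcna was at 19.1 and 21.2 and then 24.5 and 23.0 FPKM (0.23), with an interval of −2.44 to 2.90 because the fit shares its spread with the discordant alpha-amanitin libraries. Rpa3 was lower in both Kdm5a+b libraries, at 11 and 15.1 and then 4.79 and 7.08 FPKM (−1.02, −2.39 to 0.35), and so was Lig1, at 9.58 and 9.04 and then 3.09 and 4.01 FPKM (−1.19, −3.64 to 1.26). Rrm2 was at 18.4 and 22.7 and then 23.3 and 20.3 FPKM (0.08, −0.81 to 0.98). Of the 52 other pathway genes none was called by limma, and their median was −0.08.

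**Figure D5:**
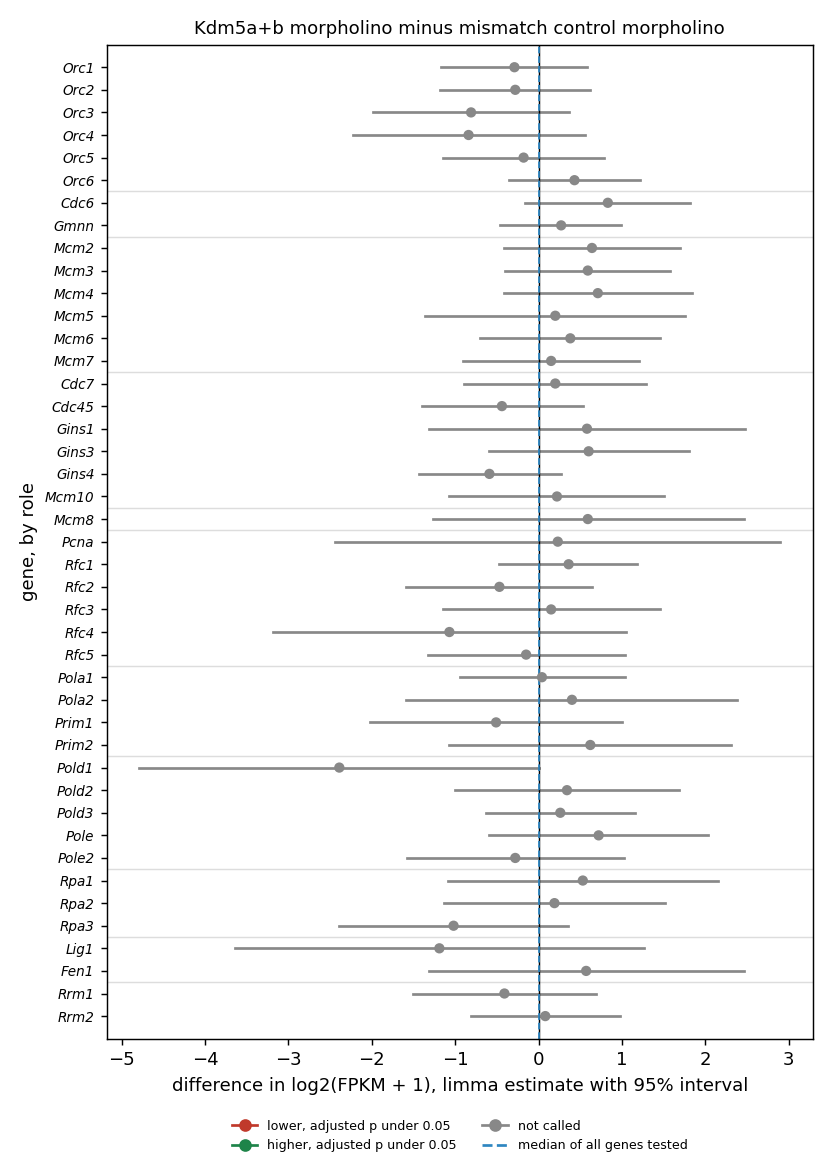
Difference of each member in log2(FPKM + 1), Kdm5a+b morpholino minus mismatch control morpholino (points, limma estimates; lines, 95% intervals), with genes in rows by role and the dashed line at the median of all genes (0.00). All 43 intervals include 0, Cdc6 is farthest to the right (0.83) and Pold1 farthest to the left (−2.39).

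Injection itself was examined by comparing the mismatch controls with wild type, which uses the same wild-type libraries as the alpha-amanitin comparison. No member was called, and none had an unadjusted limma p under 0.05. Limma called 0% of all genes lower and 0% higher, while 282 and 334 genes had an unadjusted p under 0.05. The median member differed by −0.10, and the median gene by −0.01. Both control libraries were under all wild-type libraries for Gmnn and Gins3 (4.65% of members, against 8.85% of all genes) and above them for Pold2 (2.33%, against 9.26%). Gmnn was at 43.7 and 30.1 FPKM in the controls and 48.3 to 61.8 FPKM in wild type (−0.60, 95% interval −1.26 to 0.06). Gins3 was at 1.53 and 1.83 FPKM against 3.21 to 6.30 FPKM (−1.03, −2.12 to 0.07). Pold2, which was called higher with alpha-amanitin, was at 1.53 and 1.73 FPKM here (1.09, −0.14 to 2.31). Orc1, Mcm7 and Rpa2 had differences of 0.31 (−0.50 to 1.11), −0.13 (−1.09 to 0.84) and −0.17 (−1.38 to 1.04). Intervals of this width cannot show that the controls and wild type were alike. Mcm8 (−1.23, −2.94 to 0.47) and Pold1 (1.44, −0.75 to 3.62) had the lowest and the highest difference of the members, and both varied widely within a group.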

How the data were processed

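RNA-seq of 9 libraries of late 2-cell mouse embryos was used; RNA came from an RNeasy Micro kit and libraries from the TruSeq procedure, per the labels' protocols. Per the file headers, the authors deposited FPKM for each library in the Cufflinks layout, with bounds and a status. The submitters' processing notes name BWA, Picard, Cufflinks, Trimmomatic, SAMtools, Bismark 12.5 and mm10, with no roles; the sources used here do not give the aligner and annotation of the RNA-seq. FPKM is relative to the library's own total. From these values limma 3.58.1 (R 4.3.3) was fitted to log2(FPKM + 1) of 13137 genes with FPKM of 1 or more in at least 2 libraries, with the group as the only term over all 9 libraries (5 residual degrees of freedom), a mean trend, two-sided tests and Benjamini-Hochberg adjustment over all genes, called under 0.05. Log2 differences on this scale understate changes of low genes. Exact permutation of the labels could give no p below 0.333 for 2 against 2 libraries or 0.1 for 3 against 2. Simulated data with 13137 genes were used to test the fit. For alpha-amanitin against wild type 60% of genes changed by 2 in log2 and 94% changed by 4 were recovered. For the Kdm5a+b comparison these were 40% and 92%, and for mismatch controls against wild type 66% and 87%. Changes were given to 100 genes at each size, all with a mean level well above the filter, and every other gene was kept equal. Calls among the equal genes numbered 6, 5 and 13 in these comparisons, in that order. Recovery was thus not measured for low members or with many genes changed.

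The members, the lists of further origin, fork, nucleotide supply and E2F and Rb genes, and the marker lists (2-cell, oocyte, cumulus, sperm, blood and oviduct) were chosen with earlier results of these data known. Every member could be named. Those called in a comparison, the 3 highest and the 3 lowest in wild type, and Gmnn, Rrm1 and Rrm2 were given in every library. So were further members where a sentence turns on them. Of the other lists the 3 largest falls and rises were named. Dbf4 was added after its values were seen, and Rif1 for its deposited status. Promoter letters were counted in RefSeq windows. Settings varied were the pseudocount, filter, scaling, libraries in the fit, trend, library weights, replicate block and each library left out. Other assays of the series were not analysed here.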

Additional observations from a re-analysis of the deposited data

How the results depend on the processing

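Of the 774 member values of the alpha-amanitin comparison under 18 alternatives, 705 stayed on their side of the threshold and 57 lost the call. A further 11 gained one with the same sign, and 1, of Pcna, gained one with the opposite sign. For Pcna the difference became 2.05 without alpha-amanitin replicate 1 and −3.27 without replicate 2. Over the alternatives that left out a library, 8 to 14 members fell, 2378 to 3155 of all genes fell and 298 to 502 rose. Without a filter 2172 genes fell, 266 rose and 0 members rose. Quantile normalization gave 1806 falls and 1716 rises, with 4 members lower, and median-centred libraries, added after seeing the data, gave 1590 and 3323, with 4 members lower and 6 higher. Falls were thus 85.4% of calls as reported, 51.3% with quantile normalization and 32.4% with median centring. A fit to only the groups compared gave 339 rises. The cause of these shifts was not tested.

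Replicate numbers did not pair the libraries: deviations of same-numbered libraries correlated at −0.05 to 0.04. With the replicate number as a block, 11 members fell and 1 rose, and 2744 of all genes fell and 371 rose; no member was called in the other comparisons.

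In the Kdm5a+b comparison no alternative called a member; without a filter 2 genes fell and 2 rose, and with a library left out 0 to 1 fell and 0 to 3 rose. Mismatch controls against wild type gave 2 rises without a filter, and 0 to 3 falls and 0 to 1 rises with a library left out, again with no member called under 19 alternatives. Of uncalled member values, 43, 26 and 57 changed sign in the 3 comparisons. Depth in reads is unknown, which leaves low members the least certain.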
